A study of Mus musculus with 30 samples.

Results

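The interferon regulatory factors (IRFs) described here are Irf1, Irf2, Irf3, Irf4, Irf5, Irf7, Irf8 and Irf9, that is 8 of the 54146 genes in the count table, found by matching Ensembl identifiers to gene symbols. They were followed in J774A.1, a macrophage-like line of mouse origin, across 30 RNA-seq libraries from 5 clones. WT1, WT2 and WT3 were grown from single cells that had not been electroporated. KO1 and KO2 were grown from cells electroporated with Cas9 and a pair of guides, and both copies of the SINE element B2_Mm2.Dicer1 in the first intron of Dicer1 are deleted in them. Each clone was sequenced untreated (UT) and after 4 h with 100 ng/mL of interferon-gamma (IFNG), in 3 libraries per clone and treatment. Each clone stands for 1 editing or expansion event, and nothing in the labels says that the 3 libraries came from separate cultures. Within or among clones, p-values therefore measure the spread between these libraries, which may be technical. Tests of KO against WT had no term for how clones of a genotype differ in the tested level or response. They count libraries of 1 clone as independent replicates of a genotype, and their spread mixes libraries and clones. Since the WT clones were not electroporated, genotype and procedure cannot be told apart in any comparison of KO with WT.

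IRFs are transcription factors that bind DNA through a shared N-terminal domain, which recognizes repeats of GAAA such as those in the interferon-stimulated response element (ISRE). IFNG signaling reaches promoters through the gamma-activated site (GAS) and turns on Irf1, whose product drives much of the later response. IRF9 joins STAT2 in the complex ISGF3, IRF3, IRF5 and IRF7 are activated by kinases downstream of microbial sensors, and IRF8 and IRF4 shape the identity of myeloid and lymphoid cells, often together with the Ets factor PU.1 (Spi1).

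In mm10 coordinates of the table, Irf1 (ENSMUSG00000018899.16) spans chr11:53770014-53778374, Irf2 (ENSMUSG00000031627.9) chr8:46739732-46847458, Irf3 (ENSMUSG00000003184.15) chr7:44997648-45002848 and Irf4 (ENSMUSG00000021356.10) chr13:30749226-30766976. Irf5 (ENSMUSG00000029771.12) spans chr6:29526625-29541871, Irf7 (ENSMUSG00000025498.15) chr7:141262706-141266481, Irf8 (ENSMUSG00000041515.10) chr8:120736358-120756694 and Irf9 (ENSMUSG00000002325.15) chr14:55603571-55610030. Irf7 lies on the minus strand and the others on the plus strand. In a bulk library, fewer cells expressing a gene and less RNA of it per cell cannot be told apart.

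Counted fragments per library ranged from 15566122 to 37992642. All 8 macrophage markers checked had a mean of at least 1 CPM (counts scaled to a common library size), and their summed level ran from 3935 to 6713 CPM. None of 5 B cell markers and none of 5 T cell markers reached that mean, against 1 of 5 dendritic cell markers (Zbtb46, 3.48 CPM) and 1 of 5 fibroblast markers (Pdgfra, 1.09 CPM). Dicer1, the gene in which the edit was made, had 96.8 to 130 CPM in untreated WT libraries and 70.5 to 108 CPM in untreated KO libraries, and 132 to 171 CPM against 71.5 to 105 CPM after IFNG. The deleted element is intronic and the table counts exons, so these values do not check the deletion. None of the 8 IRF genes lies on chromosome 12, where Dicer1 is.

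The stretches upstream of Irf1, Irf2 and Irf8 are shown because these genes rose after IFNG in all 5 clones and because their windows hold the letters of a GAS or an ISRE, in capitals. They are RefSeq sequences of the GRCm38.p6 build, given 5′ to 3′ on the plus strand and ending at the last base before the gene's start in the count table (chr11:53769764-53770013 for Irf1, chr8:46739495-46739731 for Irf2 and chr8:120736108-120736357 for Irf8).
Irf1: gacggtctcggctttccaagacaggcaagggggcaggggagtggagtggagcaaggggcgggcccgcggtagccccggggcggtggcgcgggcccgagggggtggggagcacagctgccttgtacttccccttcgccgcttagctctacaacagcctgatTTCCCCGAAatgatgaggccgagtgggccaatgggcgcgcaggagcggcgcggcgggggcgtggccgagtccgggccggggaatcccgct
Irf2: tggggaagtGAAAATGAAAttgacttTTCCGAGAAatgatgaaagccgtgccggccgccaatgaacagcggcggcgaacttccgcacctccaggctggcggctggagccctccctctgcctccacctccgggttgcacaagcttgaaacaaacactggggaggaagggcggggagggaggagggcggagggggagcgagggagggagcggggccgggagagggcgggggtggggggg
Irf8: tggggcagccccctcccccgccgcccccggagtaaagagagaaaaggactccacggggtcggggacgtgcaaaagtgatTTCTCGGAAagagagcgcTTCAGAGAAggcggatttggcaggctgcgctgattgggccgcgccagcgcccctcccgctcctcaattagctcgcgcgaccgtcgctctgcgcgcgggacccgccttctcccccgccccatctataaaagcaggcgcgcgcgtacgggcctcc
The search covered windows from 250 bases before to 50 bases after each RefSeq start, on both strands, for TTCNNNGAA (GAS, the same on both strands) and for 2 copies of GAAA with 2 free bases between them (ISRE). All 8 genes had an entry, with 11 windows between them. The Irf1 window held 1 GAS match, TTCCCCGAA, whose last base lies 82 bases before the start. The Irf8 window held 2 GAS matches, TTCTCGGAA and TTCAGAGAA, and the Irf2 window held 1 GAS match (TTCCGAGAA) and 1 ISRE match (GAAAATGAAA) that do not overlap each other. No window of Irf3, Irf4, Irf5, Irf7 or Irf9 held either set of letters, nor did the second windows of Irf1 and Irf8. Both Irf9 windows (chr14:55603735-55604034 and chr14:55604329-55604628) lie inside the gene's span in the count table, which starts at 55603571. The stretch before that start of Irf9 was therefore not searched. Of all 32851 windows in the reference, 8.30% held a GAS match, 3.44% an ISRE match and 0.454% both.

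The first question was which family members J774A.1 cells express and in what order. Levels of different genes were compared as CPM per kilobase of the exon length in the table. In untreated cells, Irf5 was the highest member in all 5 clones, from 72.0 CPM per kb in WT1 to 85.4 CPM per kb in KO1, and Irf8 was next, from 14.9 in WT2 to 23.9 in WT1. Irf2 followed at 7.11 to 7.63 CPM per kb. Irf3 (5.66 to 7.14) and Irf1 (4.51 to 6.29) came next, with overlapping libraries in WT1, WT2 and KO2, and in WT3 the Irf3 libraries overlapped those of Irf2. Irf9 (3.05 to 5.28), Irf7 (1.04 to 2.71) and Irf4 (0.304 to 0.770) closed the order in every clone, with no overlap between neighbours.

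After IFNG, Irf1 moved to the top of the family in all 5 clones, at 178 to 229 CPM per kb. Irf8 was second in WT1, WT2, WT3 and KO2, at 80.8 to 141 CPM per kb, while in KO1 Irf5 (94.1 ± 5.3, SD, n = 3) and Irf8 (89.0 ± 7.6) overlapped. Irf7 rose above Irf9 in every clone, although their libraries overlapped in KO1, and it stood above Irf2 in WT2 (18.8 against 12.1) and WT3 (15.4 against 12.5) and below it in KO1 and KO2. Irf3 was then seventh and Irf4 eighth in all 5 clones. With the longest coding transcript in place of the table's exon length, 12 of the 80 ranks moved, all of them below the first place. Irf2 then stood above Irf7 in all 5 clones after IFNG, Irf8 stood above Irf5 in KO1, and Irf4 was still last throughout.

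**Figure D1:**
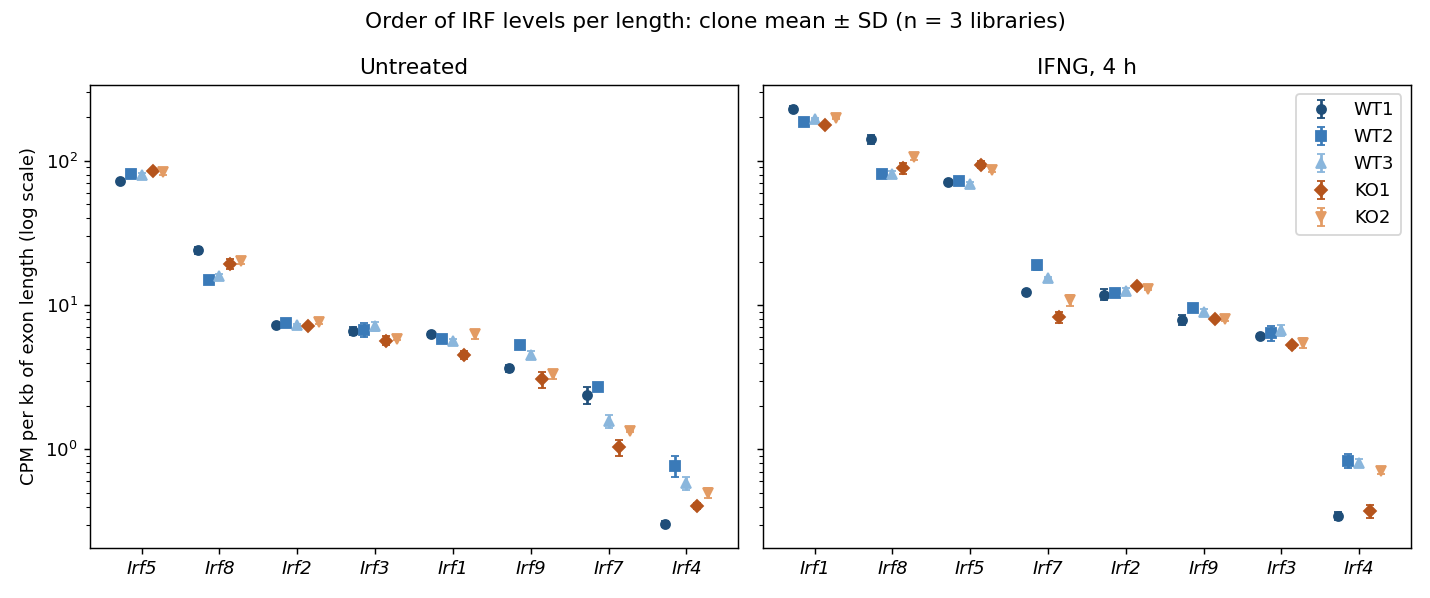
Mean level of each IRF gene per length (CPM per kb of exon length, log axis) in each clone, with the SD over 3 libraries, untreated on the left and after IFNG on the right, genes ordered by the mean of the clones. Irf5 leads untreated cells at 72.0 to 85.4 CPM per kb and Irf1 leads IFNG-treated cells at 178 to 229 CPM per kb.

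The response to IFNG was then tested separately in the 5 clones. All 8 members had enough counts to be tested in every comparison. Of these, 5 passed the threshold (FDR adjusted p-value under 0.05) in WT1, 6 in WT2, 7 in WT3, 6 in KO1 and 6 in KO2. Over all genes tested, the share past the threshold was 21.2% in WT1, 34.5% in WT2, 36.1% in WT3, 29.4% in KO1 and 27.1% in KO2, with a median log2FC between -0.0083 and 0.0019. The share higher was 11.8%, 17.4%, 18.6%, 16.2% and 13.9%, and the share lower 9.47%, 17%, 17.5%, 13.2% and 13.2%, in the same order of clones. Irf1, Irf2, Irf7, Irf8 and Irf9 rose in all 5 clones and under every alternative tried.

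Irf1, an activator that IFNG induces early, made the largest change of the family. Its untreated libraries ran from 21.7 to 26.1 CPM in the WT clones and from 16.7 to 25.96 CPM in the KO clones, and its IFNG libraries from 717 to 960 CPM and from 698 to 787 CPM. Treated and untreated libraries were thus far apart in every clone. The log2FC was 5.17 ± 0.076 (SE) in WT1, 5.00 ± 0.046 in WT2, 5.11 ± 0.048 in WT3, 5.33 ± 0.061 in KO1 and 4.97 ± 0.060 in KO2, with adjusted p-values of 2.23e-15 or less. The ratio of the means was 31.4 to 39.5. KO1 had both the lowest untreated mean (17.9 ± 1.1 CPM, SD, n = 3) and the highest log2FC.

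Irf2, which binds the same sites as IRF1 and can oppose it, rose by far less. In WT1 the untreated libraries had 54.6, 53.9 and 53.0 CPM and the IFNG libraries 92.4, 78.6 and 91.1 CPM. In KO1 the corresponding values were 51.2, 52.8 and 53.8 CPM and 103, 97.0 and 99.8 CPM. No IFNG library of any clone overlapped an untreated one. The log2FC ran from 0.69 ± 0.069 in WT1 (adjusted p = 3.77e-06) to 0.96 ± 0.047 in KO1 (adjusted p = 1.50e-09).

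Irf9, the DNA-binding subunit of ISGF3, rose by more than Irf2 in log2FC in every clone. In WT2, the clone with the smallest change, it went from 27.9, 28.2 and 29.3 CPM to 49.95, 53.5 and 50.4 CPM (log2FC 0.87 ± 0.053, adjusted p = 2.48e-11). In KO1, the clone with the largest, it went from 17.2, 17.96 and 14.2 CPM to 43.9, 42.5 and 43.6 CPM (log2FC 1.43 ± 0.080, adjusted p = 6.40e-09). The clones differed more before IFNG than after it, with the highest clone mean 1.73 times the lowest in untreated cells and 1.202 times the lowest after treatment. Irf9 shares 123 exon bases (2.28% of its exon length) with Rnf31 on the same strand, and fragments there were counted for both genes.

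Irf7, which amplifies type I interferon production once sensors have activated it, was among the lowest members before treatment. WT1 had 10.3, 7.97 and 8.72 CPM untreated and 46.4, 44.4 and 48.1 CPM after IFNG, a log2FC of 2.35 ± 0.093 (adjusted p = 1.11e-10). WT3 started lower, at 6.50, 5.31 and 5.94 CPM, and reached 58.8, 59.1 and 57.1 CPM, a log2FC of 3.30 ± 0.071 (adjusted p = 5.19e-17). WT2 had the highest mean in both treatments (10.2 ± 0.52 and 71.1 ± 5.1 CPM), and its log2FC of 2.81 ± 0.068 lay between these. KO1 (3.36, 4.34 and 4.04 CPM to 29.4, 34.4 and 29.9 CPM) and KO2 (4.96, 5.09 and 5.17 CPM to 42.8, 43.2 and 36.9 CPM) both had a log2FC of 3.02.

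Irf8, a lineage factor of monocytes and macrophages, was already abundant and rose 4.599 to 5.89 times. WT1 stood out, with 180, 167 and 159 CPM untreated and 991, 925 and 1069 CPM after IFNG. WT2 went from 108, 106 and 102 CPM to 574, 552 and 599 CPM. KO1 lay between, from 148, 130 and 132 CPM to 575, 627 and 682 CPM. The log2FC had a narrower range, from 2.23 ± 0.070 in KO1 (adjusted p = 8.59e-12) to 2.55 ± 0.075 in WT1 (adjusted p = 3.32e-12).

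The other members moved little or not in every clone. Irf3, which is present before stimulation and is activated by phosphorylation, did not pass the threshold in any clone. Its log2FC lay between -0.11 ± 0.079 in WT1 and -0.05 ± 0.089 in WT2, with adjusted p-values of 0.385 to 0.744. Irf5, which acts downstream of Toll-like receptors, passed in 3 clones and in opposite directions. It fell in WT2, from 243, 239 and 225 CPM to 214, 201 and 221 CPM (log2FC -0.14 ± 0.040, adjusted p = 0.0101), and in WT3, from 236, 225 and 236 CPM to 207, 197 and 194 CPM (log2FC -0.21 ± 0.041, adjusted p = 0.000391). It rose in KO1, from 246, 250 and 248 CPM to 267, 262 and 291 CPM (log2FC 0.17 ± 0.050, adjusted p = 0.0194). About 14.1% of the exon length of Irf5 (411 bases) overlaps exons of Tnpo3 on the opposite strand, and counting was stranded. Leaving out a single library ended the call in WT2 (UT library a, adjusted p = 0.0701, or IFNG library b, 0.0583) and in KO1 (UT library a, 0.0625, UT library b, 0.0552, or IFNG library c, 0.0649).

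Irf4, best known from lymphocytes, dendritic cells and alternatively activated macrophages, was the lowest member throughout. It rose in WT3, from 2.88, 2.57 and 3.17 CPM to 3.72, 3.92 and 4.23 CPM (log2FC 0.47 ± 0.15, adjusted p = 0.0180), and in KO2, from 2.22, 2.53 and 2.59 CPM to 3.69, 3.51 and 3.30 CPM (log2FC 0.53 ± 0.14, adjusted p = 0.00888). In WT1 it had 1.48, 1.44 and 1.56 CPM untreated and 1.80, 1.57 and 1.71 CPM after IFNG (adjusted p = 0.608), and the values of WT2 and KO1 overlapped between treatments. The WT3 call was lost without UT library a (adjusted p = 0.0519), UT library b (0.0716) or IFNG library c (0.0650), and with DESeq2 (0.0758).

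**Figure D2:**
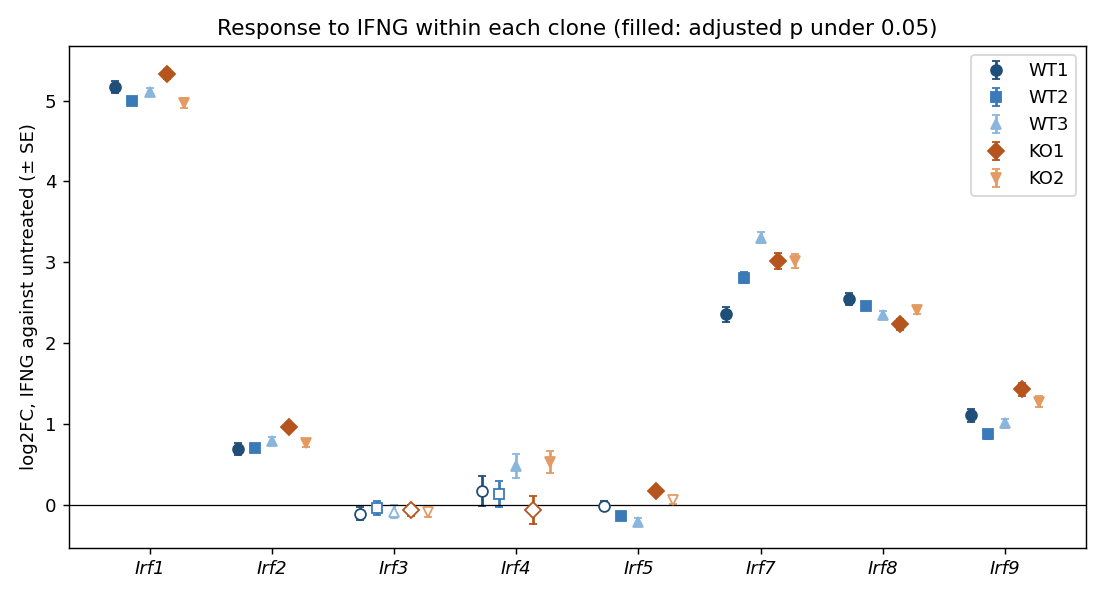
log2FC of IFNG against untreated for each IRF gene (horizontal axis) in each clone, with the SE of edgeR's fit on 3 libraries per treatment. Filled markers passed an adjusted p-value of 0.05. Irf1 sits near 5 in all clones (4.97 to 5.33), Irf7 spreads most among the induced genes (2.35 to 3.30), and Irf3 lies just below 0 (-0.11 to -0.05).

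Whether the clones answered IFNG differently was tested jointly over the 5 clones in 1 fit of all 30 libraries. Of the 8 members, 4 passed, against 3.68% of all genes tested, namely Irf1 (adjusted p = 0.0152), Irf5 (0.00113), Irf7 (0.000115) and Irf9 (0.00256). For Irf2, Irf3, Irf4 and Irf8 the adjusted p-values were 0.187, 1.00, 0.240 and 0.0941, and Irf8 passed with no count filter (0.00738). Between pairs of clones, the largest difference was that of Irf7 between WT3 and WT1 (0.93 ± 0.13 on the log2 scale, adjusted p = 1.72e-05), which are both WT clones. Clone pairs were each adjusted over all genes. The Irf7 response of WT1 was also smaller than those of KO1 (0.62 ± 0.14, adjusted p = 0.0132) and KO2 (0.65 ± 0.13, adjusted p = 0.00967). The Irf8 response of WT1 was larger than that of KO1 (KO1 minus WT1 -0.36 ± 0.087, adjusted p = 0.0343). The Irf7 call was lost without WT1 (adjusted p = 0.102), the Irf9 call without WT2 (0.103), the Irf5 call without WT3 (0.0632) and the Irf1 call without KO1 (0.308) or KO2 (0.0598).

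The next comparison was of the IFNG response between KO and WT clones. Only Irf5 and Irf9 passed, 2 of 8 members against 1.02% of all genes tested (0.679% with the larger response in KO clones and 0.336% with the smaller). The Irf9 response was larger in KO clones by 0.35 ± 0.070 (adjusted p = 0.00668), with log2FC values of 1.43 and 1.27 in KO1 and KO2 and of 1.11, 0.87 and 1.01 in the WT clones. The Irf5 response was larger by 0.22 ± 0.048 (adjusted p = 0.0121), with 0.17 and 0.05 in KO1 and KO2 and -0.02, -0.14 and -0.21 in the WT clones. For both genes the KO clones lay above all 3 WT clones. Both were picked by the test of this difference, so the order is not a separate result. Of the 6 pairs of a KO and a WT clone, which share clones, 3 passed for Irf9 and 3 for Irf5. Neither gene passed the genotype test without WT2 (adjusted p = 0.119 for Irf9 and 0.0768 for Irf5) or without KO1 (0.233 and 0.374), and Irf5 did not pass without WT3 (0.114). With counts summed to 1 value per clone and treatment, 0 of 8 members passed edgeR's test and 2 had an unadjusted p-value under 0.05, Irf9 and Irf5. Of all 16844 genes tested on these sums, 2 passed. The differences were then 0.33 for Irf9 (adjusted p = 0.535) and 0.22 for Irf5 (adjusted p = 0.586).

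Levels were then compared between KO and WT clones, first without IFNG. Of the 8 members, 4 passed, against 26.6% of all genes tested (12.2% higher and 14.4% lower in KO clones). Irf7 was lower in KO clones by 0.90 ± 0.16 on the log2 scale (adjusted p = 0.000797), with 3.36, 4.65 and 5.17 CPM as the lowest, median and highest of 6 KO libraries and 5.31, 8.72 and 10.7 CPM in 9 WT libraries. The Irf7 libraries of KO and WT clones did not overlap, as was the case for 9.20% of all genes tested. Irf9 was lower by 0.50 ± 0.10 (adjusted p = 0.00188) and Irf3 by 0.25 ± 0.057 (adjusted p = 0.00396), and Irf5 was higher by 0.12 ± 0.041 (adjusted p = 0.0431), all with overlapping libraries.

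For these 4 members the means of KO1 and KO2 lay on the same side of all 3 WT means. They were picked by a test on the same libraries, so this order is not a separate result. Its share over all genes was not counted. For Irf7 the nearest clones were close. KO2 had 4.96 to 5.17 CPM of Irf7 and WT3 5.31 to 6.50 CPM, and this pair did not pass (KO2 minus WT3 -0.22 ± 0.11, adjusted p = 0.127), whereas WT3 was lower than WT1 (-0.60 ± 0.10, adjusted p = 4.73e-05) and WT2 (-0.78 ± 0.11, adjusted p = 3.80e-05). Of the 6 pairs of a KO and a WT clone, which share clones, 5 passed for Irf7, 5 for Irf9 and 4 for Irf3, each time with the KO clone lower, and 2 for Irf5 with the KO clone higher, both against WT1. Without KO1, Irf7 was the 1 member still past the threshold, and Irf9 and Irf3 had adjusted p-values of 0.0528 and 0.0736. Over all genes tested, 3689 of 13886 passed with all 5 clones, 1674 of 14441 without KO1 and 6472 of 13552 without WT1. Irf5 did not pass without any 1 of WT1 (adjusted p = 0.0719), WT3 (0.0503), KO1 (0.271) or KO2 (0.104), nor with no count filter (0.0727). Without WT1, Irf8 (0.35, adjusted p = 7.95e-06) and Irf4 (-0.58, adjusted p = 0.00333) passed as well, as did Irf1 (-0.40, adjusted p = 0.000807) without KO2. With counts summed per clone, 0 of 8 members passed edgeR's test and 3 had an unadjusted p-value under 0.05. Of all 16189 genes tested on these sums, 1 passed. Irf7 then had a log2FC of -0.90 with an adjusted p-value of 0.343.

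After IFNG, 4 of 8 members passed, against 23.9% of all genes tested (10.9% higher and 13% lower). Irf7 was lower in KO clones by 0.69 ± 0.13 (adjusted p = 0.00102), with 29.4, 35.6 and 43.2 CPM as the lowest, median and highest KO libraries and 44.4, 58.8 and 76.6 CPM in WT. Irf5 was higher by 0.35 ± 0.044 (adjusted p = 3.58e-05), with 246, 261 and 291 CPM in KO and 194, 207 and 221 CPM in WT. For both genes the KO and WT libraries did not overlap, as in 7.97% of all genes tested. Irf3 was lower by 0.25 ± 0.062 (adjusted p = 0.00680) and Irf2 higher by 0.13 ± 0.043 (adjusted p = 0.0413), with overlapping libraries.

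Among the 8 members, Irf5 after IFNG was the 1 comparison of levels in which all 6 KO and WT pairs passed in the same direction and no pair of WT clones passed. These pairs share clones, and how many of all genes have such a pattern was not counted. Irf5 was also the 1 member past the threshold without KO1, where Irf7 had an adjusted p-value of 0.0533, Irf3 of 0.108 and Irf2 of 0.397. Irf2 did not pass without WT2 (adjusted p = 0.114) or KO2 (0.0646) either, nor with no count filter (0.0760). Over all genes tested, 3258 of 13637 passed with all 5 clones, 1411 of 14042 without KO1 and 5992 of 13382 without WT1. Without WT1, 7 members passed instead of 4, among them Irf4 (-0.57, adjusted p = 0.0228) and Irf9 (-0.21, adjusted p = 0.000422). Irf8 then turned from -0.05 ± 0.16 (adjusted p = 0.865) to a log2FC of 0.27 (adjusted p = 0.00350), WT1 being the clone with the highest Irf8 level. With counts summed per clone, 0 of 8 members passed edgeR's test after IFNG and 3 had an unadjusted p-value under 0.05, and the adjusted p-value of Irf5 was 0.276. Of all 16197 genes tested on these sums, 1 passed.

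**Figure D3:**
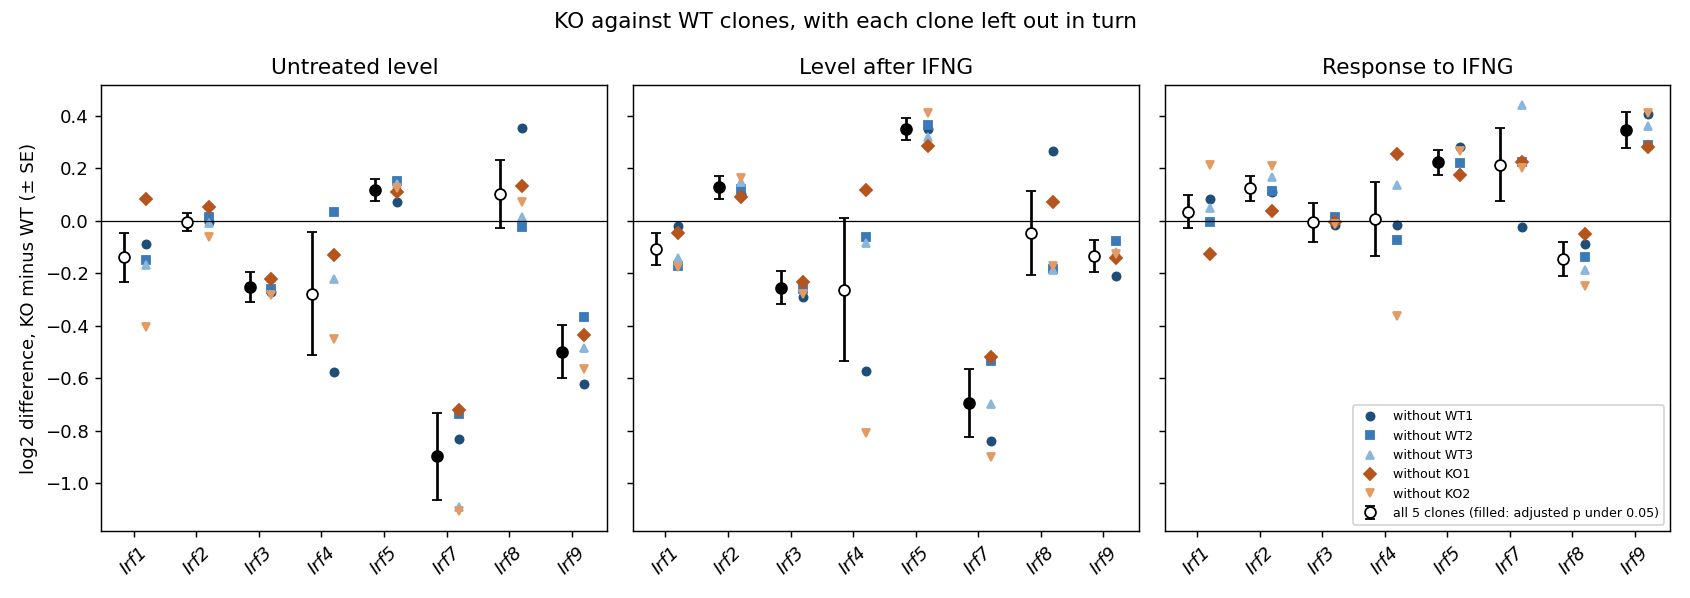
Difference between KO and WT clones on the log2 scale for each IRF gene (horizontal axis) in untreated level, level after IFNG and response to IFNG. Black circles with the SE use all 5 clones and are filled where the adjusted p-value was under 0.05, and colored markers leave out 1 clone each. Irf7 lies below 0 in both levels whichever clone is left out, while Irf8 after IFNG turns from -0.05 to 0.27 without WT1.

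Among the clones as such, untreated levels differed for 7 of the 8 members, all but Irf2, against 73.2% of all genes tested, and levels after IFNG for all 8, against 69.3%. Irf7 had the widest range of clone means in untreated cells (2.61 times from KO1 to WT2), closely followed by Irf4 (2.53 times from WT1 to WT2), and after IFNG Irf4 ranged over 2.42 times and Irf7 over 2.28 times. Irf8 ranged over 1.605 times untreated and 1.75 times after IFNG, with WT1 highest in both. Irf2 had the narrowest range in both treatments (1.07 and 1.14 times). The order of the clones was the same before and after IFNG for Irf3 and for Irf4. For Irf4 and Irf8 the highest and the lowest clone were both WT clones in each treatment. Without WT1 the untreated Irf5 levels no longer differed past the threshold (adjusted p = 0.165), nor did those of Irf1 without KO1 (0.0767) or those of Irf2 after IFNG without KO1 (0.219).

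**Figure D4:**
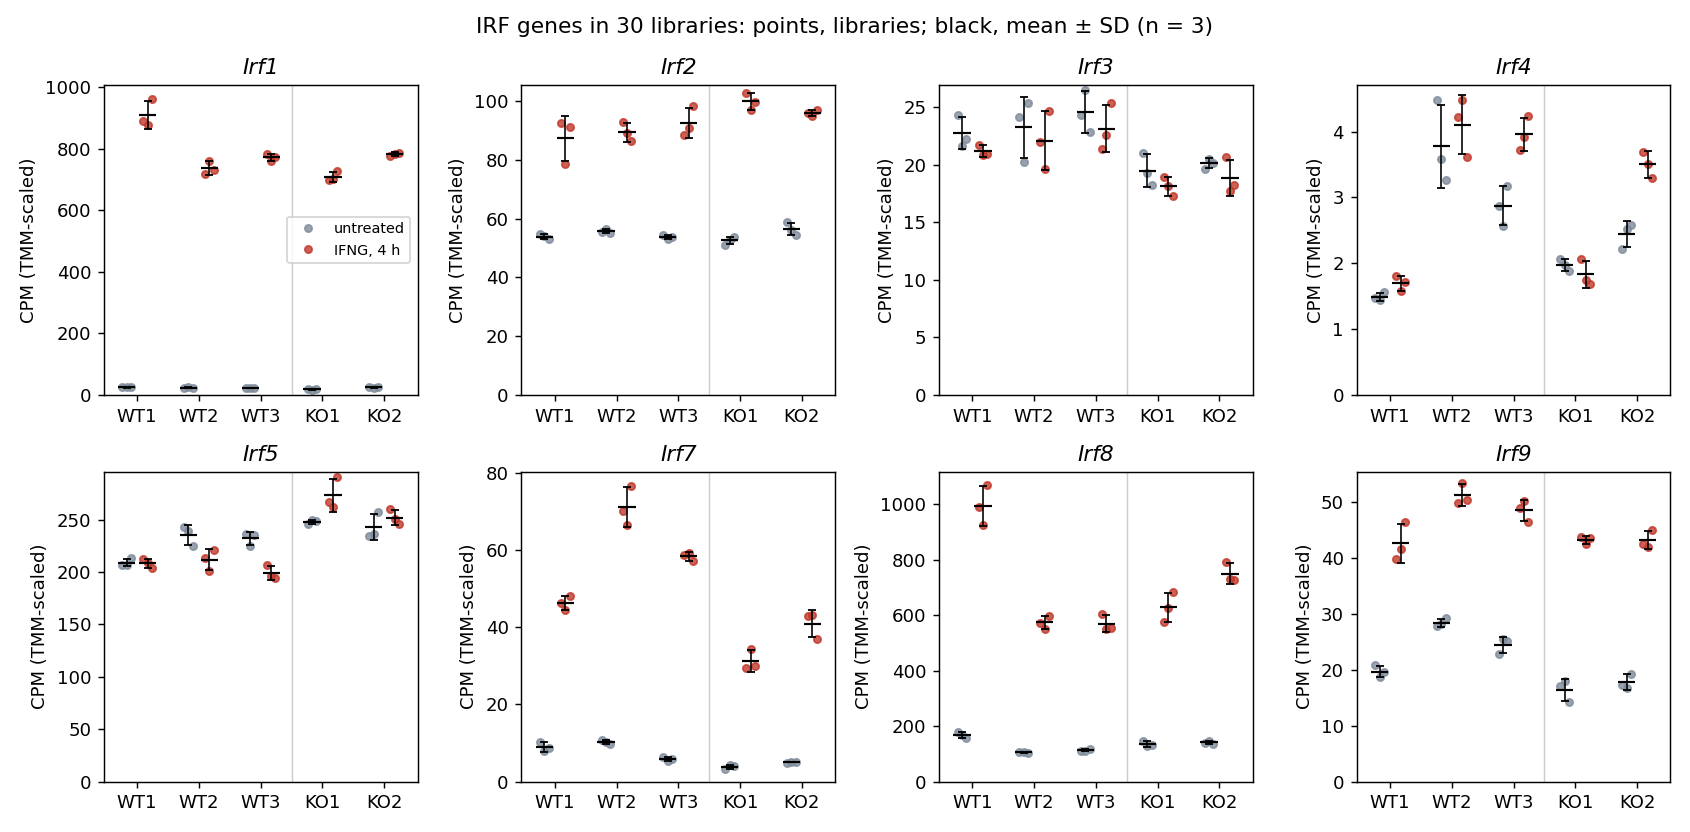
Level of each IRF gene (CPM, linear axes from 0) in the 3 libraries of each clone and treatment, with the mean and SD in black and WT clones left of the line. The Irf7 libraries of KO1 and KO2 lie below those of the WT clones in each treatment (29.4 to 43.2 against 44.4 to 76.6 CPM after IFNG), and WT1 has the highest Irf8 libraries (925 to 1069 CPM after IFNG).

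The genes that feed into the IRFs or work with them were described from lists chosen with earlier results of these data known. Of 10 receptor, JAK and STAT genes, 5 rose, 3 fell and 2 did not pass in each WT clone and KO2, and 6 rose and 3 fell in KO1. Over all genes tested, 11.8% to 18.6% rose and 9.47% to 17.5% fell, depending on the clone. The median log2FC of the list was 0.17 in WT1. Stat2, which binds IRF9 in ISGF3, rose in WT1 with a log2FC of 2.66 ± 0.075, and the type I interferon receptor chain Ifnar1 fell by 0.45 ± 0.057.

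In untreated KO clones Stat2 was lower by 0.44 ± 0.076 (adjusted p = 0.000504), beside Irf9, lower by 0.50 ± 0.10. After IFNG, Stat2 was lower by 0.23 ± 0.072 (adjusted p = 0.0308), while Irf9 had a log2FC of -0.13 ± 0.061 (adjusted p = 0.126). Of 16 ISGF3 target genes, 14 were tested in untreated cells, of which 8 were lower in KO clones, with a median log2FC of -0.66 beside -0.00040 over all genes. Of all genes tested in untreated cells, 14.4% were lower in KO clones. After IFNG 4 of 16 were lower, with 10 lower without WT1 and 2 lower without KO1. With counts summed per clone 0 of 16 passed edgeR's test in either treatment, 7 having an unadjusted p-value under 0.05 in untreated cells and 2 after IFNG, and the adjusted p-value of untreated Stat2 was 0.330. Of all genes tested on these sums, 1 of 16189 passed in untreated cells and 1 of 16197 after IFNG. Stat2 after IFNG did not pass without KO1 (adjusted p = 0.466), WT2 (0.0911) or WT3 (0.144), or with no count filter (0.0753).

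ISGF3 target genes that could be tested all rose after IFNG in every clone, 16 of 16 in WT1, WT2, KO1 and KO2 and 15 of 15 in WT3. Ifit1 went from 0.657 to 9.94 CPM in WT1 (log2FC 3.91 ± 0.16) and Ifit3 from 0.201 to 2.998 CPM (log2FC 3.88 ± 0.26). The IRF1 target genes also rose, with 13 of 13 tested genes higher in each clone and a median log2FC of 4.44 in WT2 to 5.66 in KO1, which did not change when genes without untreated counts were set at their lower bound. Cxcl10, a chemokine for T cells, went from 0.496 to 705 CPM in WT1. Cxcl9, a related chemokine, had no count in any untreated WT1 library and 34.2 CPM after IFNG, at least 974 times higher than a floor of 3 counts over the untreated group. Ciita, the activator of MHC class II genes, was too low to be tested and had at most 0.444 CPM in any library.

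Both target lists were also set side by side between genotypes. Of 13 IRF1 targets tested after IFNG, 6 were higher in KO clones and 0 lower, with a median log2FC of 0.22 beside 0.00097 over all genes, whereas the ISGF3 targets had 0 higher, 4 lower and a median of -0.27. Cxcl9 was among the IRF1 targets that were higher (0.49 ± 0.11, adjusted p = 0.00375), and Cxcl10 had a log2FC of 0.03 ± 0.15 (adjusted p = 0.917). The count of 6 higher became 9 higher and 1 lower without WT1, 2 higher without WT2 and 0 without KO1. Among all genes tested, 2992 of 13382 were higher without WT1, 1059 of 13596 without WT2 and 551 of 14042 without KO1. In untreated cells 1 of 10 tested IRF1 targets was lower in KO clones and 0 higher, with a median of -0.13, and 2 were lower and 2 higher without WT1. Beside these, 14.4% of all genes tested were lower and 12.2% higher. Without WT1, 3208 of 13552 were lower and 3264 higher. The response to IFNG was larger in KO clones for 0.679% of all genes tested and smaller for 0.336%. It was larger for 4 of 13 IRF1 targets (median difference 0.41) and for 2 of 16 ISGF3 targets (median difference 0.30), and smaller for 0 in either list. For the IRF1 targets that count became 1 without WT2 or without KO1, and 6 larger and 1 smaller with no count filter. For the ISGF3 targets it became 4 with no count filter or without WT3, and 1 with counts summed per clone. With such sums, edgeR's test called 0 IRF1 targets in level or response, with 0 untreated, 2 after IFNG and 5 in response having an unadjusted p-value under 0.05. Over all genes tested, these sums gave 1 call untreated, 1 after IFNG and 2 in response. Without sums, the response was larger in KO clones for 27 of 14874 genes without WT2 and 11 of 14661 without KO1. Whether the lists differed from each other was not tested.

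Of the 19 sensors, adaptors and kinases upstream of IRF3, IRF5 and IRF7, 9 to 11 rose and 2 or 3 fell, depending on the clone. Over all genes tested, the shares were 11.8% to 18.6% and 9.47% to 17.5%. In WT1 the RNA sensor Tlr3 (log2FC 1.91 ± 0.085) and the DNA-sensing adaptor Tmem173, known as STING (1.35 ± 0.066), rose most, and the adaptor Mavs fell by 0.48 ± 0.076. Of the 18 type I and II interferon ligands, 17 had no count in any of the 30 libraries, and Ifnb1 had 1 count in 1 library, an IFNG library of KO2.

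Of 9 tested DNA-binding partners and corepressors of IRFs, 4 rose and 3 fell in WT1, beside 11.8% and 9.47% of all genes tested. Batf2, an AP-1 factor that pairs with IRF1, rose from 0.764 to 61.4 CPM in WT1 (log2FC 6.30 ± 0.13) and Batf3, a partner of IRF8 and IRF4, from 3.22 to 5.92 CPM (log2FC 0.87 ± 0.15). Irf2bpl, a relative of corepressors that bind IRF2, fell by 0.42 ± 0.094. Spi1, the partner of IRF8 and IRF4, was higher in KO clones both untreated (0.35 ± 0.059, adjusted p = 0.000395) and after IFNG (0.45 ± 0.072, adjusted p = 0.000318), and neither call held with counts summed per clone (adjusted p = 0.355 and 0.285). Irf8 and Irf4 passed in neither of these comparisons with all 5 clones. With counts summed per clone, 1 of all genes tested passed in untreated cells and 1 after IFNG.

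Finally, the genes whose pattern over the 10 clone-by-treatment means was most like each member were listed, out of 12345 genes averaging 1 CPM or more. The 10 means share 5 clones, and most of the spread of an induced gene is the IFNG step itself, so Pearson's r is given as a description. The guanylate-binding protein genes Gbp2 (r = 0.999) and Gbp11 (0.999) and the GTPase gene Igtp (0.999) were closest to Irf1, and Ubash3b (0.997), Cxcl9 (0.995) and Jcad (0.995) to Irf2. Irf7 was closest to Ifih1 (0.994), the RNA sensor MDA5, Epsti1 (0.993) and Ggct (0.990), and Irf9 to Slfn8 (0.992), Apobec3 (0.989) and Ifi207 (0.987). Irf8 was closest to 9330175E14Rik (0.994), Clec2d (0.993) and Egr2 (0.992). The members without an IFNG step in every clone had the nearest genes Prrc2b (0.987), Zc3hav1l (0.985) and Smarca2 (0.984) for Irf3, Gm47293 (0.985), Ahsa1 (0.983) and Cyb5d1 (0.962) for Irf4, and Arpp19 (0.947), Gm7308 (0.945) and Ppp1r21 (0.927) for Irf5. Irf5 had the lowest r with its nearest gene.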

How the data were processed

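Polyadenylated RNA from 30 J774A.1 libraries was sequenced as paired reads. The authors used BBDuk for trimming and HISAT2 2.1.0 for alignment to mm10, kept uniquely placed fragments, merged technical replicates with SAMtools 1.10 and deposited raw counts per gene made with featureCounts 1.6.2 (versions from the submitters' processing notes), reverse stranded, with a fragment over overlapping genes counted for each. The file header names a Gencode annotation and the methods RefSeq. Authors' comparison columns were not used. Labels mention different RNA inputs and index types without assigning them to libraries, so these could not be checked as batches.

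Library columns carry clone and treatment but no replicate number, and libraries are named a, b and c. The deposited counts were fitted over the whole table with edgeR 4.0.16 in R 4.3.3 (filterByExpr, TMM, quasi-likelihood test), with Benjamini-Hochberg adjustment over all genes tested and a threshold of 0.05. SE is the absolute log2FC over the square root of F. CPM used TMM factors from 14870 genes. Total counts ranged from 15566122 to 37992642 (median 23682133.5). Scripts were tested on simulated data. For KO against WT, these data held no differences between clones of a genotype. They therefore do not check false calls from such differences. Alternatives were DESeq2 1.42.0, RLE factors, other count filters, 1 fit of all libraries, leaving out each library or clone, and sums per clone. Likeness used Pearson's r on mean log2(CPM + 0.5). Named genes were the 8 members and, per list, the 2 highest and 1 lowest log2FC past the threshold in WT1, plus Stat2, Spi1 and other preset genes, some of which are not reported here. Members and lists were chosen with earlier results of these data known. Figures used Python 3.11.15 and matplotlib 3.10.9.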

Additional observations from a re-analysis of the deposited data

Results flagged for a closer look

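The IFNG responses of 2 genes differed between KO and WT clones by a test of the difference itself. That of Irf9 was larger in KO clones by 0.35 on the log2 scale and that of Irf5 by 0.22. The KO clones lay above all WT clones for both genes, which is not a separate result, since this test picked them. Across the 5 clones without regard to genotype, responses differed for Irf7 (adjusted p = 0.000115), Irf5 (0.00113), Irf9 (0.00256) and Irf1 (0.0152, edgeR's quasi-likelihood test with Benjamini-Hochberg adjustment). For Irf7 the widest gap was between WT3 and WT1. In 32 sets of libraries (8 genes, each by genotype and treatment), no single highest or lowest library was set apart from its set by Dixon's criterion, which pools clones and so does not see the 3 high Irf8 libraries of WT1.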

How the results depend on the processing

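Of 896 alternative values for single members, 822 had the direction and side of the threshold reported, 45 lost and 6 gained a call, and 23 turned direction. The rises of Irf1, Irf2, Irf7, Irf8 and Irf9 held under every alternative in all 5 clones. The number of members whose response differed by genotype went from 2 to 0 without WT2, to 1 without WT3, to 0 without KO1 and to 0 with counts summed per clone. The number of members that differed between untreated KO and WT clones went from 4 to 1 without KO1 and to 0 with sums per clone, and after IFNG from 4 to 7 without WT1, to 1 without KO1 and to 0 with sums per clone. By edgeR the sums left 2, 3 and 3 members with an unadjusted p-value under 0.05 in these comparisons, which have 3 WT and 2 KO clones. Over all genes tested, calls in response went from 151 to 37 without WT2, 82 without WT3, 21 without KO1 and 2 with sums. Untreated, they went from 3689 to 1674 without KO1 and 1 with sums. After IFNG, they went from 3258 to 5992 without WT1, 1411 without KO1 and 1 with sums. Except for Irf8 after IFNG, values that turned direction did not pass the threshold. Leaving out 1 library at a time, the response of Irf5 in WT1 ranged from -0.031 to 0.011 (positive without IFNG library c) and that of Irf3 in WT2 from -0.15 to 0.032 (positive without IFNG library b, and 0.013 without UT library c). Response differences by genotype turned for Irf1 to -0.0033 without WT2 and -0.13 without KO1, for Irf3 to 0.0017 with DESeq2, 0.00097 with RLE factors, 0.013 without WT2 and 0.0027 without WT3, for Irf4 to -0.016 without WT1, -0.073 without WT2 and -0.36 without KO2, and for Irf7 to -0.025 without WT1. Differences between untreated KO and WT clones turned for Irf1 to 0.082 without KO1, for Irf2 to 0.0075 with no count filter, 0.0015 with at least 10 counts in every library, 0.015 without WT2 and 0.053 without KO1, for Irf4 to 0.033 without WT2 and for Irf8 to -0.022 without WT2. After IFNG they turned for Irf4 to 0.12 without KO1 and for Irf8 to 0.27 without WT1 (adjusted p = 0.0035) and 0.070 without KO1. With no count filter the untreated difference of Irf5 and that of Irf2 after IFNG lost their calls, leaving 3 members in place of 4 in each comparison. The cause was not tested. No paired analysis was possible because the columns carry no replicate numbers, so the planned replicate block was not run. The planned RefSeq transcript length was not run, and the longest coding transcript was chosen in its place after seeing the data. Irf4 had few counts, which limits the precision of its values.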
